A study of Caenorhabditis elegans with 12 samples.

Results

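This comparison set arrested first-stage (L1) Caenorhabditis elegans progeny of parents fed daf-2 RNAi directly against progeny of parents fed pitr-1 RNAi. It used the 4 libraries of each RNAi, 8 of the 12 libraries of the study, and all genes. The 4 daf-2 RNAi and 4 pitr-1 RNAi libraries were chosen by their titles, and libraries of the same replicate number were treated as pairs. Progeny of parents on bacteria with an empty vector, the remaining 4 libraries, were used to place the differing genes. They also entered the scaling of the printed levels and an alternative fit of all 12 libraries, while the main test left them out. In all 3 groups the animals were hrde-1(tm1200) mutants, parents spent 72 h on the RNAi bacteria (HT115), and larvae that had hatched without food were frozen about 24 h after bleaching. The sequenced RNA was polyadenylated RNA of the larvae, with no tissue separated, so fewer cells of a type and less RNA per cell cannot be told apart.

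The insulin/IGF receptor of the worm is encoded by daf-2. When its signal is low, the FOXO transcription factor DAF-16 enters nuclei and changes the transcription of stress defence and metabolic genes. pitr-1 is a relative of the PiT phosphate transporters, and hrde-1 encodes a nuclear Argonaute protein that carries inherited RNAi in the germline. The worm cannot make heme and takes it from its food. Several of its heme-responsive genes, named hrg, are known to be expressed more strongly when heme is scarce, and the best known of them move heme across membranes or between tissues.

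Counts assigned to genes were 9640590 to 10502750 per daf-2 RNAi library and 5907286 to 10345381 per pitr-1 RNAi library. The lowest total, and the lowest TMM factor (0.618), belonged to pitr-1 RNAi replicate 1, in which 42.2% of gene counts were ribosomal RNA and 39.8% of reads did not align. Over the groups, ribosomal RNA took 25.3% ± 7.91 of gene counts in daf-2 RNAi libraries, against 26.3% ± 12.35 in pitr-1 RNAi libraries (n = 4 each, SD; exact permutation test over the pairs, two-sided p = 1). The share of reads that did not align was lower in daf-2 RNAi in 4 of 4 pairs (exact permutation test over the pairs, with the smallest p that 4 pairs allow; adjusted over 5 library measures, p = 0.625). Over 10094 genes, 57.6% of the variance lay on the first principal component, and 96.8% of that variance lay between replicate numbers against 0.805% between RNAi groups. The 7 defining markers of body wall muscle summed to 2307 to 5283 CPM in daf-2 RNAi libraries, against 2270 to 4832 CPM in pitr-1 RNAi libraries; all markers of muscle, pharynx and neurons passed the filter on low counts, and none of the 35 sperm markers did.

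**Figure D1:**
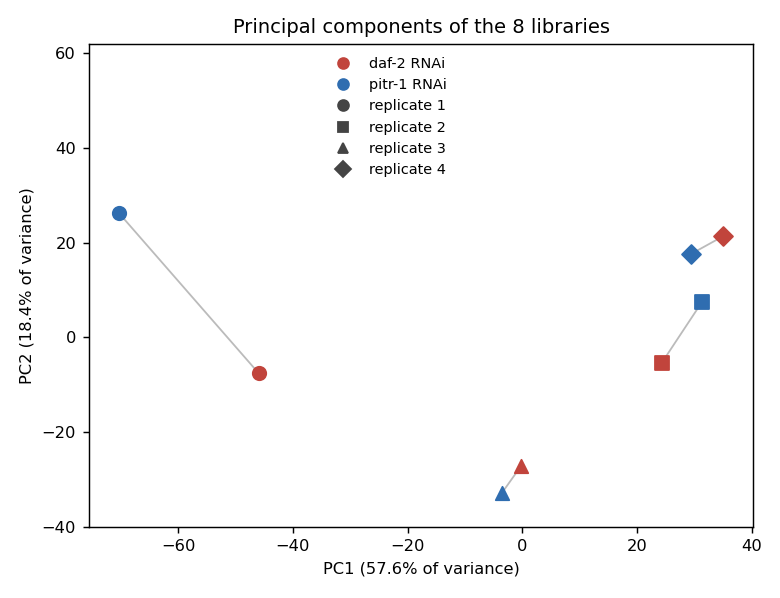
Scores of the 8 libraries on the first and second principal components of log2 CPM (10094 genes), in red for daf-2 RNAi and blue for pitr-1 RNAi. Marker shape gives the replicate number and grey lines join libraries of the same number. The first component spreads the numbers, from −70.3 and −46.0 for replicate 1 to at least 24.3 for replicates 2 and 4, and does not separate the RNAi groups.

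Levels are given as CPM, counts per 1e6 of the library size after TMM normalization, which corrects for a few abundant genes taking up reads. Differences are log2 fold changes, positive where daf-2 RNAi is higher, with an approximate standard error (SE). The targeted genes were measured first. daf-2 RNA stood at 21.9, 61.1, 43.5 and 63.5 CPM in daf-2 RNAi replicates 1 to 4, against 40.6, 63.7, 33.9 and 59.6 CPM in pitr-1 RNAi progeny. The groups overlapped, with a log2 fold change of −0.09 and a 95% interval from −0.46 to 0.29. pitr-1 stood at 299, 220, 190 and 187 CPM in daf-2 RNAi progeny, against 322, 178, 179 and 168 CPM in pitr-1 RNAi progeny (log2 fold change 0.13, 95% interval −0.09 to 0.34). hrde-1, the gene mutated in all animals, gave a log2 fold change of 0.04 with a 95% interval from −0.64 to 0.72. None of the 3 passed the test. The RNAi was fed to the parents, whose RNA was not analysed here, so these levels check neither label.

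Of 14115 genes tested, 33 (0.234%) were higher and 27 (0.191%) lower in daf-2 RNAi than in pitr-1 RNAi progeny (edgeR quasi-likelihood test with the replicate number as a block, Benjamini-Hochberg adjusted p under 0.05). All 60 calls had the same direction in 4 of 4 pairs. The CPM of the groups did not overlap for 17 of the 33 higher and 13 of the 27 lower genes, against 286 genes (2.03%) among all tested. The calls rest on the pairing: without the replicate block edgeR called 0 genes in either direction, with 168 higher and 155 lower at an unadjusted p under 0.05 and a smallest adjusted p of 0.156. With the block, 8.18% of genes had an unadjusted p under 0.05. DESeq2 without the block called 9 higher (0.0639%) and 7 lower (0.0497%). Each of the 60 genes had the same sign in both fits. The labels do not say what libraries of one replicate number share, and the pairing was read from the data.

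When each replicate number was left out in turn, F56D6.9, cnc-11, grd-3 and ugt-1 remained called as higher, and hrg-3, hrg-2 and asp-10 as lower, in all 4 fits. Of these 7, cnc-11 lost its call in the fit of all 12 libraries (edgeR adjusted p = 0.345). DESeq2 without the block did not call cnc-11, hrg-2 or F56D6.9 (DESeq2 adjusted p = 0.9999, 0.204 and 0.0997). Each call outside these 7 was lost in at least 1 of the 4 fits that left out a replicate number. Without replicate 1 the counts of calls grew to 153 higher (1.06%) and 132 lower (0.911%). They shrank to 6 higher (0.0429%) and 8 lower (0.0572%) without replicate 2, to 19 (0.132%) and 8 (0.0558%) without replicate 3, and to 6 (0.0432%) and 5 (0.036%) without replicate 4.

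**Figure D2:**
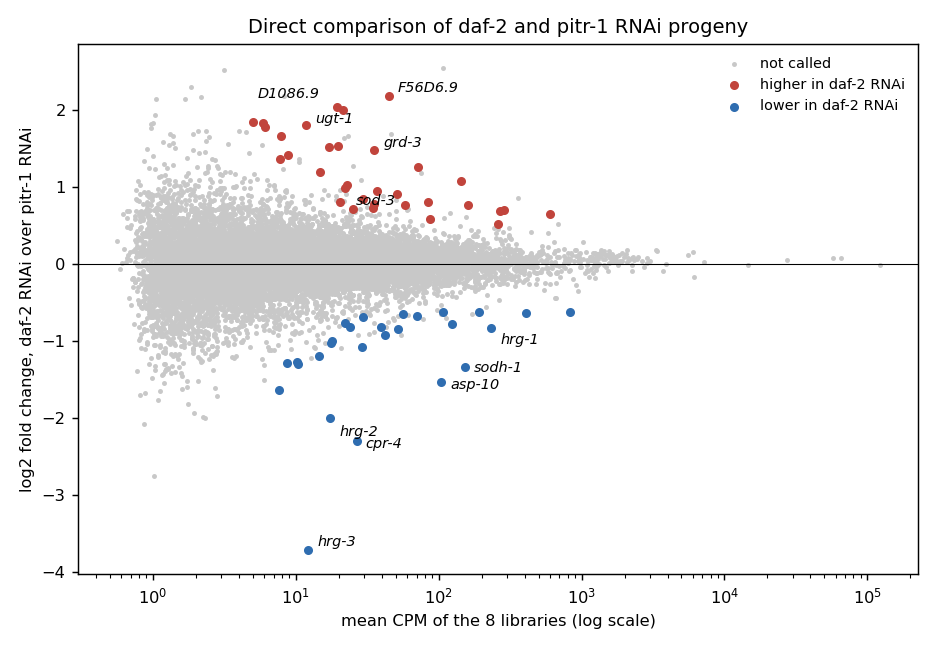
Log2 fold change of daf-2 RNAi over pitr-1 RNAi progeny for each of 14115 genes against its mean CPM in the 8 libraries (log axis). The 33 genes called higher are red, the 27 called lower blue and the others grey; hrg-3, at −3.72, lies farthest from 0.

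The largest decrease among all genes tested was that of hrg-3, a heme-responsive gene, and 3 further heme-responsive genes were lower with it. hrg-3, hrg-2, asp-10 and hrg-1 fell in daf-2 RNAi relative to pitr-1 RNAi progeny. They were 4 of the 13 tested genes of a list on heme and iron handling, and none of the 13 was called higher. Over all genes tested 0.191% were called lower and 0.234% higher. At the latter share, the lack of a higher call among 13 genes says little. The list held 4 genes above and 9 below 0, with a median log2 fold change of −0.14 (0.01 over all genes tested).

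hrg-3 encodes a small secreted protein that carries heme from the mother's intestine to other tissues and to embryos. It stood at 3.09, 0.647, 1.21 and 0.773 CPM in daf-2 RNAi replicates 1 to 4, against 63.9, 6.87, 14.1 and 6.86 CPM in pitr-1 RNAi progeny. Every daf-2 RNAi library was below every pitr-1 RNAi library, and replicate 1 was the highest of its group in both. The log2 fold change was −3.72 ± 0.26 (SE, n = 4 pairs; edgeR adjusted p = 0.000173), and it ranged from −3.88 to −3.36 when a pair was left out. The counts behind these levels were 31, 7, 12 and 9 in daf-2 RNAi libraries, against 244, 79, 137 and 93 in pitr-1 RNAi libraries.

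hrg-2 encodes a glutathione S-transferase-like membrane protein of the epidermis that takes part in heme use there. It stood at 17.4, 4.35, 3.23 and 5.58 CPM in daf-2 RNAi, against 45.0, 18.7, 24.6 and 20.6 CPM in pitr-1 RNAi progeny. The groups did not overlap, although daf-2 RNAi replicate 1 came close to the lowest pitr-1 RNAi library. The log2 fold change was −2.001 ± 0.23 (SE, n = 4 pairs; edgeR adjusted p = 0.00324).

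asp-10, also named hrg-7, encodes a secreted aspartyl protease that signals heme status from the intestine. It stood at 69.9, 47.9, 46.7 and 49.4 CPM in daf-2 RNAi, against 145, 151, 155 and 163 CPM in pitr-1 RNAi progeny. The gap between the groups was wider than the range within either. The log2 fold change was −1.53 ± 0.13 (SE, n = 4 pairs; edgeR adjusted p = 0.000393).

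hrg-1, a heme transporter of intestinal vesicles, stood at 314, 120, 125 and 114 CPM in daf-2 RNAi, against 540, 195, 239 and 223 CPM in pitr-1 RNAi progeny. Replicate 1 was far above the others in both groups, so the groups overlapped while each pair showed the same direction. The log2 fold change was −0.83 ± 0.09 (SE, n = 4 pairs; edgeR adjusted p = 0.00324). Without replicate 4 the value was −0.81 and the adjusted p 0.0532.

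Other heme genes did not pass. hrg-4, a heme importer of the intestinal surface, averaged 1.02 ± 0.266 CPM in daf-2 RNAi progeny, against 3.08 ± 1.04 CPM in pitr-1 RNAi progeny (SD, n = 4 each; log2 fold change −1.53 ± 0.41, SE, edgeR adjusted p = 0.213). Its relative hrg-6 averaged 1.49 ± 0.72 CPM in daf-2 RNAi progeny, against 3.74 ± 2.37 CPM in pitr-1 RNAi progeny (−1.196 ± 0.41, SE, edgeR adjusted p = 0.401). Both were lower in 4 of 4 pairs, at 9 to 42 counts per library. mrp-5, the exporter that passes heme out of the intestine, gave −0.14, and the heme trafficking gene hrg-9 gave 0.21. ftn-1, an iron-storing ferritin, averaged 128 ± 47.6 CPM in daf-2 RNAi progeny, against 88.7 ± 47.6 CPM in pitr-1 RNAi progeny, and just missed the threshold (0.59 ± 0.12, SE, edgeR adjusted p = 0.0591), while ftn-2 gave −0.08. hrg-4, hrg-6, hrg-9, mrp-5 and ftn-1 were chosen for description after their values were seen.

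Set against empty vector progeny, the 4 heme genes that fell lay nearer to daf-2 RNAi than to pitr-1 RNAi progeny. From the fit of all 12 libraries, asp-10 had a log2 fold change of −0.03 ± 0.14 in daf-2 RNAi progeny, against 1.51 ± 0.14 in pitr-1 RNAi progeny over empty vector (SE). hrg-2 had −0.35 ± 0.28 in daf-2 RNAi progeny, against 1.64 ± 0.27 in pitr-1 RNAi progeny. hrg-1 had 0.17 ± 0.22 in daf-2 RNAi progeny, against 1.00 ± 0.22 in pitr-1 RNAi progeny. hrg-3 lay on both sides, at −1.29 ± 0.51 in daf-2 RNAi progeny, against 2.42 ± 0.45 in pitr-1 RNAi. The 4 empty vector libraries serve both values of each gene. That fit called 12 genes higher (0.0818%) and 10 lower (0.0682%) in the direct comparison, all of them among the 60 calls. The difference was still called for hrg-3, hrg-2 and asp-10, and hrg-1 had an edgeR adjusted p of 0.317.

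The annotation used here places exons of F58E6.11 antisense to hrg-3 and of C15C8.7 antisense to asp-10, and the library kit does not mark strand. F58E6.11 averaged 5.11 ± 1.55 CPM in daf-2 RNAi progeny, against 6.85 ± 1.24 CPM in pitr-1 RNAi progeny, and C15C8.7 averaged 45.9 ± 21.04 CPM in daf-2 RNAi progeny, against 45.2 ± 22.7 CPM in pitr-1 RNAi progeny (SD, n = 4 each). Of all calls, 7 higher and 8 lower genes overlap an exon of an antisense gene.

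**Figure D3:**
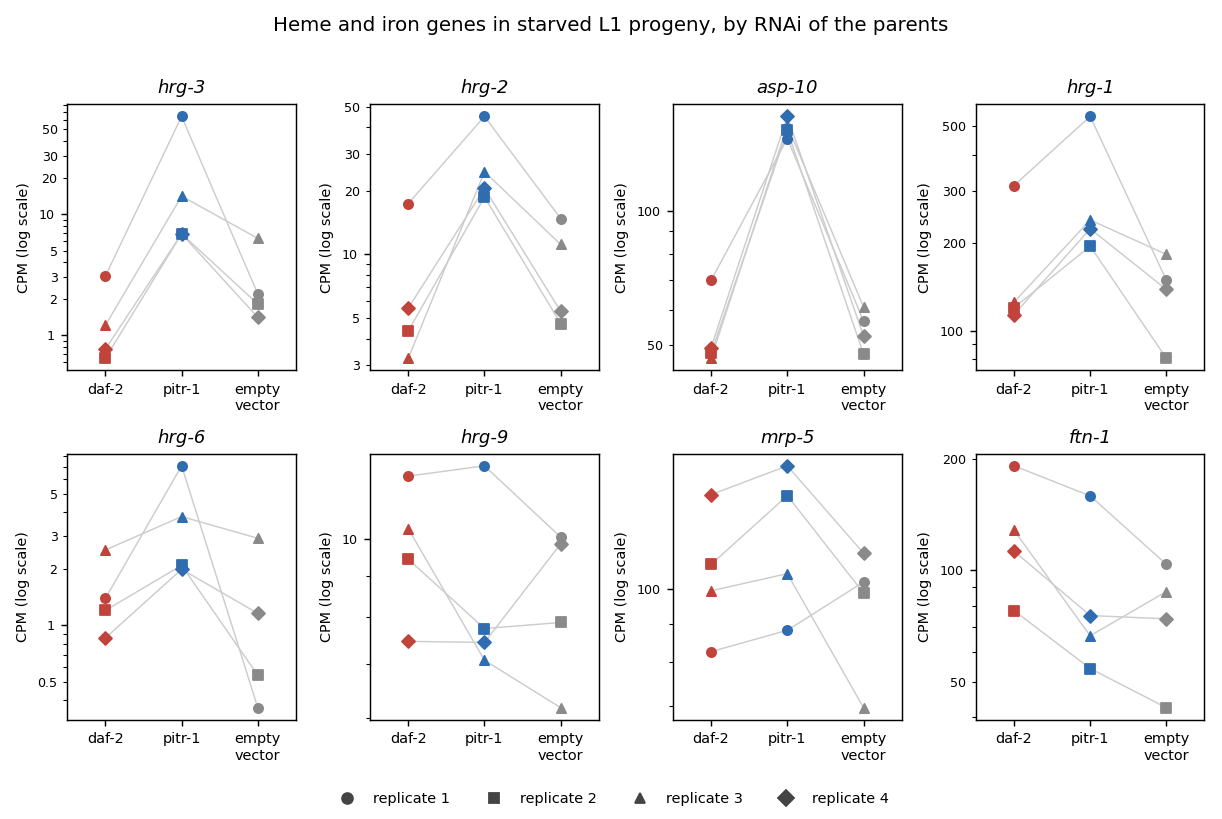
CPM (log axes) of 8 heme and iron genes in the 4 libraries of daf-2 RNAi (red), pitr-1 RNAi (blue) and empty vector (grey) progeny, with grey lines joining libraries of the same replicate number. hrg-3, hrg-2 and asp-10 do not overlap between daf-2 and pitr-1 RNAi, and asp-10 in empty vector progeny (47.7 to 60.9 CPM) lies with daf-2 RNAi.

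Proteases of the gut also held lower calls, but not every list leaned lower. Of 13 tested aspartyl proteases, asp-10 was the only call, and 9 lay above and 4 below 0 (median 0.13). Among 8 cathepsin B-like cysteine proteases, a family that includes digestive enzymes of the gut, cpr-4 and cpr-1 fell and none was called higher. Over all genes tested 0.191% were called lower. Of the 8, 7 lay below 0 with a median of −0.74. cpr-4 stood at 5.68, 6.75, 12.7 and 10.8 CPM in daf-2 RNAi, against 33, 62, 44.7 and 38 CPM in pitr-1 RNAi progeny. The highest daf-2 RNAi library held well under the lowest pitr-1 RNAi library. The log2 fold change was −2.30 ± 0.22 (SE, n = 4 pairs; edgeR adjusted p = 0.00126), and without replicate 1 it was −2.24 with an adjusted p of 0.107. Its value over empty vector was −2.33 ± 0.23 in daf-2 RNAi progeny, against −0.03 ± 0.21 in pitr-1 RNAi progeny (SE). cpr-1 averaged 18.5 ± 5.15 CPM in daf-2 RNAi progeny, against 39.8 ± 12.4 CPM in pitr-1 RNAi progeny (SD, n = 4 each; −1.08 ± 0.17, SE, edgeR adjusted p = 0.0205); without replicates 2 or 3 its adjusted p was 0.202 and 0.117. cpr-8, cpr-3 and cpr-5 were lower in 4 of 4 pairs without passing (−0.84, −0.75 and −0.74), and cpr-6 gave 0.16.

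Other intestinal genes were measured beside the proteases. Of 25 intestine markers 16 lay below 0 (median −0.12), and the 2 that fell were cpr-4 and cpr-1 again. The peptide transporter pept-1 gave −0.63 (edgeR adjusted p = 0.0695) and the gut transcription factor elt-2 −0.53 (0.473). These 2 do not stand for the list, in which 9 markers lay above 0, the highest at 0.21. The summed level of the 9 defining markers was 2239 to 4637 CPM in daf-2 RNAi libraries, against 2745 to 3468 CPM in pitr-1 RNAi libraries. The median of these sums was 3490 CPM in daf-2 RNAi, against 3281 CPM in pitr-1 RNAi libraries. Of the 9 markers, 6 lay below 0. The part of intestinal RNA content in the protease results was not tested.

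Fat and alcohol metabolism gave single calls. acox-1, a peroxisomal acyl-CoA oxidase, fell, with 3.98, 6.104, 6.46 and 6.95 CPM in daf-2 RNAi, against 9.42, 19.8, 11.7 and 17.2 CPM in pitr-1 RNAi progeny. The groups did not overlap, and the log2 fold change was −1.27 ± 0.20 (SE, edgeR adjusted p = 0.0211; 0.226 without replicate 2 and 0.201 without replicate 4). It was the single call among 19 peroxisomal beta-oxidation genes, 15 of which lay below 0 (median −0.22). Among all genes tested 0.425% were called in either direction. fil-1, a fasting-induced lipase, fell with 11.8, 9.34, 14.1 and 9.61 CPM in daf-2 RNAi against 31.1, 21.3, 27.8 and 15.1 CPM in pitr-1 RNAi progeny (−1.03 ± 0.17, SE, edgeR adjusted p = 0.0211; 0.194, 0.114 and 0.0715 without replicates 2, 3 and 4). sodh-1, an alcohol dehydrogenase, fell too (−1.34 ± 0.19, SE, edgeR adjusted p = 0.0211). Its 50.5 to 123.1 CPM in daf-2 RNAi overlapped 75.9 to 492 CPM in pitr-1 RNAi progeny. Its exons overlap those of the antisense gene sodh-2, so the split between the 2 genes is uncertain. The lectin clec-7 fell as the single call among 94 C-type lectins (−1.202 ± 0.16, SE, edgeR adjusted p = 0.00772). With 0.425% of all genes tested called, 1 call among 94 says little about that family. R193.2, F49F1.5 and F49C12.7, which carry sequence names only, fell with log2 fold changes of −1.63, −1.31 and −1.29. Without replicates 2 and 4 in turn the adjusted p was 0.133 and 0.12 for sodh-1, 0.0899 and 0.0941 for clec-7, 0.179 and 0.0532 for R193.2, 0.137 and 0.153 for F49F1.5, and 0.314 and 0.136 for F49C12.7 (edgeR).

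Of the 33 higher genes, 10 carry only a sequence name, and several of the named ones encode small secreted peptides. F56D6.9 had the largest increase among the calls, with 115, 50.9, 78.0 and 41.6 CPM in daf-2 RNAi, against 37.7, 7.22, 17.9 and 9.07 CPM in pitr-1 RNAi progeny. The groups came close but did not overlap, and replicate 1 was the highest in both. The log2 fold change was 2.18 ± 0.17 (SE, n = 4 pairs; edgeR adjusted p = 0.00029).

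Of 63 genes for lysozymes, saposin-like proteins and antimicrobial peptides, 5 rose and 1 fell, while 39 lay below 0 (median −0.07). Over all genes tested 0.234% were called higher and 0.191% lower. The small secreted peptide genes fipr-22 and fipr-23 rose. fipr-22 stood at 41.3, 26.5, 22.5 and 26.7 CPM in daf-2 RNAi, against 10.2, 6.87, 12.21 and 10.5 CPM in pitr-1 RNAi progeny, without overlap (1.53 ± 0.20, SE, edgeR adjusted p = 0.00715). fipr-23 gave 1.51 ± 0.23, and how the reads divide between these similar genes is uncertain. fipr-26 rose by 1.99 ± 0.28, with overlapping groups and 86 CPM in daf-2 RNAi replicate 1. The caenacin gene cnc-11, a peptide of epidermal defence, stood at 424, 87.7, 167 and 72.1 CPM in daf-2 RNAi, against 259, 36.5, 72.4 and 34.6 CPM in pitr-1 RNAi progeny. Its groups overlapped, also without replicate 1, while daf-2 RNAi was higher in each pair (1.07 ± 0.11, SE, edgeR adjusted p = 0.00154; 0.345 in the fit of all 12 libraries). The saposin-like spp-17 rose by 1.84 ± 0.27 and spp-2 fell by 0.62. spp-17 was one of 2 higher genes, with gfi-1, for which empty vector progeny lay nearer to daf-2 RNAi (0.57 ± 0.25 in daf-2 RNAi progeny, against −1.26 ± 0.28 in pitr-1 RNAi progeny over empty vector, SE). Without replicates 2 and 4 in turn the edgeR adjusted p was 0.0813 and 0.0532 for fipr-22, 0.137 and 0.119 for fipr-23, and 0.0813 and 0.128 for spp-17, and without replicate 1 it was 0.113 for fipr-26.

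The hedgehog-related genes grd-3 and grd-10 were called higher. The rest of that family was not counted, so these 2 calls give no direction for it. grd-3 stood at 52, 38.9, 56.1 and 59.7 CPM in daf-2 RNAi, against 19.9, 12.27, 16.51 and 28.7 CPM in pitr-1 RNAi progeny. The groups did not overlap (1.47 ± 0.15, SE, edgeR adjusted p = 0.00126). grd-10 rose by 0.77 ± 0.13 (edgeR adjusted p = 0.0319; 0.215, 0.214 and 0.383 without replicates 2, 3 and 4). Both belong to a list of 20 epidermis markers, of which 10 lay above and 10 below 0 (median −0.02). Among all genes tested 0.234% were called higher. grd-3 was also the single call among 47 molting and epidermal secreted proteins, 31 of which lay below 0 (median −0.14).

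Among 152 xenobiotic enzymes, ugt-1, gst-20 and cyp-34A9 rose and gst-6 fell (0.234% higher and 0.191% lower over all genes tested). ugt-1, a UDP-glucuronosyltransferase that conjugates small molecules, stood at 27, 14.2, 19.6 and 13.5 CPM in daf-2 RNAi, against 5.50, 5.05, 4.51 and 5.09 CPM in pitr-1 RNAi progeny. The pitr-1 RNAi libraries lay close together and below all daf-2 RNAi libraries (1.81 ± 0.21, SE, edgeR adjusted p = 0.00324). gst-6 fell by 0.68 ± 0.10, and gst-20 rose by 0.65 ± 0.11. cyp-34A9 rose by 0.72 ± 0.13 (SE, edgeR adjusted p = 0.0393) and was called in 1 of the 4 fits that left out a replicate number. ant-1.2, an adenine nucleotide translocator of mitochondria, rose by 1.83 ± 0.34, and icmt-1, which methylates prenylated proteins, by 1.65 ± 0.24. D1086.9, F45D11.1 and F55B12.10, unnamed in the tables used, rose by 2.04, 1.78 and 1.41. Without replicate 2 the edgeR adjusted p was 0.0729 for D1086.9, 0.224 for F45D11.1, 0.267 for F55B12.10, 0.136 for ant-1.2, 0.137 for icmt-1, 0.249 for gst-20 and 0.147 for gst-6. ant-1.2, F45D11.1, gst-20 and gst-6 were each called in 1 of the 4 fits that left out a replicate number. F55B12.10 and icmt-1 were called in 2 of them and D1086.9 in 3.

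**Figure D4:**
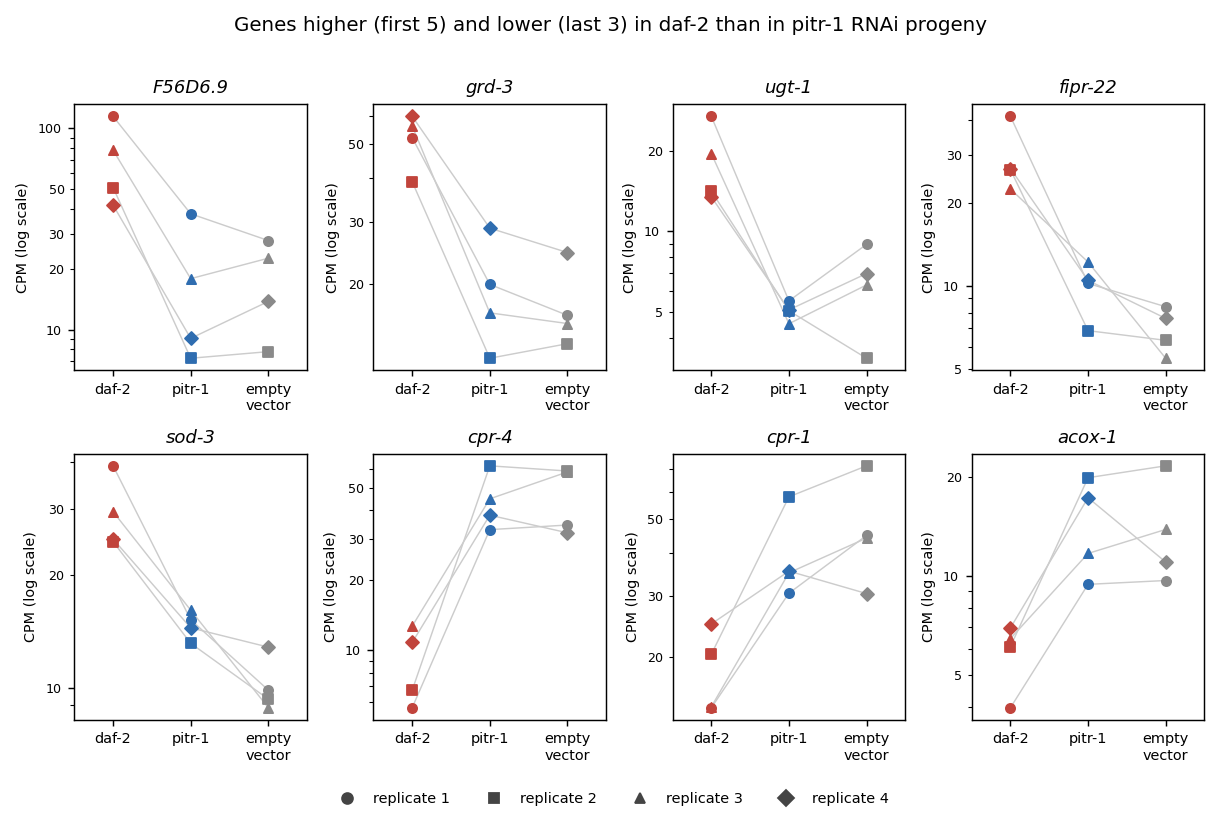
CPM (log axes) of 5 genes called higher and 3 called lower, in daf-2 RNAi (red), pitr-1 RNAi (blue) and empty vector (grey) progeny, with lines joining replicate numbers. daf-2 RNAi stands apart from the other groups in cpr-4, at 5.68 to 12.7 CPM, and in grd-3, at 38.9 to 59.7 CPM.

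Genes known to change when insulin-like signalling is low were given as lists taken from earlier knowledge and earlier results of these data. The same libraries are counted here, so the counts describe the lists and give no separate support. Of 32 tested genes reported higher in that state, sod-3, gst-20 and mtl-1 rose, sodh-1 fell, and 24 lay above 0 (median 0.13). The shares called over all genes tested were 0.234% higher and 0.191% lower. sod-3, the mitochondrial manganese superoxide dismutase, stood at 39, 24.5, 29.5 and 24.9 CPM in daf-2 RNAi, against 15.2, 13.1, 16.103 and 14.4 CPM in pitr-1 RNAi progeny. The groups did not overlap, and the log2 fold change was 0.98 ± 0.15 (SE, edgeR adjusted p = 0.0161; 0.137, 0.0956 and 0.12 without replicates 2, 3 and 4). Over empty vector it was 1.501 ± 0.19 in daf-2 RNAi progeny, against 0.52 ± 0.19 in pitr-1 RNAi progeny (SE), and in that fit of all 12 libraries the direct difference did not pass (0.98 ± 0.19, SE, edgeR adjusted p = 0.0616). The metallothionein mtl-1 rose by 0.70 ± 0.12 with overlapping groups (SE, edgeR adjusted p = 0.0319). It was called in 1 of the 4 fits that left out a replicate number, and not with all 12 libraries (edgeR adjusted p = 0.111). sod-5, djr-1.2 and lea-1, a superoxide dismutase, a DJ-1 relative and a desiccation protectant, had values of 1.69, 2.18 and 1.18 and did not pass (edgeR adjusted p = 0.213, 0.0899 and 0.106). T28C6.10 gave 0.85 (edgeR adjusted p = 0.315), and alh-2, an aldehyde dehydrogenase, 1.44 (0.175). Of 14 genes reported lower in that state, cpr-4 and cpr-1 fell and 9 lay below 0 (median −0.14).

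The 20 genes of the insulin receptor pathway itself gave no call. With 0.425% of all genes tested called in either direction, the lack of a call among 20 genes says little. Their log2 fold changes ran from −0.28 to 0.37 with a median of 0.04, and all 20 had a 95% interval within 1 log2 unit of 0. daf-16 averaged 240.7 ± 46.6 CPM in daf-2 RNAi progeny, against 238.5 ± 40.8 CPM in pitr-1 RNAi progeny (SD, n = 4 each). Among 30 oxidative stress enzymes 1 rose, sod-3, and 26 lay above 0 (median 0.22), where 0.234% of all genes tested were called higher. pck-2, a phosphoenolpyruvate carboxykinase of gluconeogenesis, rose by 0.52 ± 0.09, the smallest change among the calls (edgeR adjusted p = 0.0345; 0.216, 0.329 and 0.378 without replicates 2, 3 and 4). 22 phosphate transporters and acid phosphatases gave no call, which says as little at that share of 0.425%. Of the 22, 11 lay above and 11 below 0 (median 0.01).

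Several larger lists leaned to 1 side with no call. With 0.425% of all genes tested called, the lack of calls in lists of these sizes says little. Of 30 FMRFamide-like neuropeptide genes 28 lay below 0 (median −0.18), of 82 ribosomal protein genes 71 lay above 0 (0.07), of 52 DNA replication and cell cycle genes 41 (0.20) and of 42 germline and maternal transcripts 32 (0.20). The median was below 0 in each of the 4 pairs for the neuropeptide genes. The 3 other lists had medians above 0 in 3 pairs each and below 0 in 1, which was pair 1 for the ribosomal proteins (−0.27) and pair 3 for the DNA replication (−0.11) and germline (−0.22) genes. Over all genes tested 7342 lay above and 6773 below 0. The 10 defining germline markers summed to 39.5 to 187 CPM in daf-2 RNAi libraries, against 35.3 to 204 CPM in pitr-1 RNAi libraries, so their ranges overlapped.

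Empty vector progeny lay nearer to pitr-1 RNAi than to daf-2 RNAi progeny, by the log2 ratio of mean CPM, for 31 of the 33 higher and 18 of the 27 lower genes. The 9 lower genes for which they lay nearer to daf-2 RNAi were hrg-3, hrg-2, hrg-1, asp-10, R193.2, ZK896.5, tag-10, F36A2.3 and ctsa-1. These counts share the empty vector libraries and are given as a description.

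**Figure D5:**
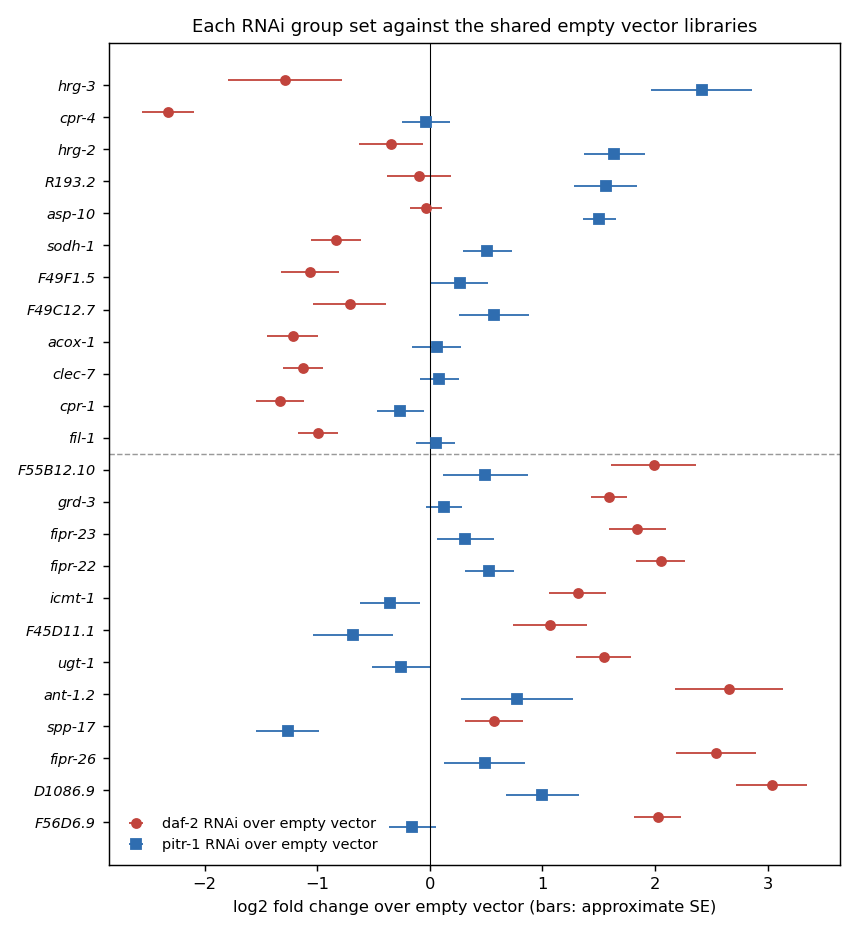
Log2 fold change over empty vector of daf-2 RNAi (red circles) and pitr-1 RNAi (blue squares) progeny for the 12 genes of largest change called in each direction, from the fit of all 12 libraries; bars are approximate SE and the dashed line parts lower from higher genes. hrg-2, R193.2 and asp-10 lie near 0 in daf-2 RNAi but above 1 in pitr-1 RNAi, while cpr-4 and acox-1 lie near 0 in pitr-1 RNAi.

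The precision was uneven. Of the 14115 genes, 73.1% had a 95% interval within 1 log2 unit of 0 and 35.5% one within 0.5, and the median interval reached 0.43 log2 units to either side. For genes outside those bounds a difference of that size cannot be set aside at this depth.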

How the data were processed

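Larvae were sequenced as polyadenylated RNA with a kit that does not mark strand, per the labels' protocols. Counts of reads per gene, as whole numbers, are what the authors deposited, with 44968 gene entries and 5 summary entries per library. Bowtie 1.2.2, HTSeq and edgeR are named in the submitters' processing notes. Build and annotation: not given in the sources used here. No coordinates are printed. Library sizes and tests left the summary entries out: reads in no feature were 1.71% to 4.60% of all reads, ambiguous reads 4.59% to 8.45% and reads not aligned 16.3% to 39.8%. Names came from the authors' deposited table for 12395 entries, RefSeq for 31333 and Ensembl release 115 for 834; 406 had none. The authors deposited log2 fold changes and log2 CPM made with edgeR and a batch correction, for each RNAi over empty vector. The p-values that the authors deposited come from the same edgeR fits. The F scores that the authors deposited are the statistics of those fits. None of these values entered a test.

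Counts were fitted with edgeR 4.0.16 in R 4.3.3 (TMM, filterByExpr, robust quasi-likelihood test, two-sided, Benjamini-Hochberg adjustment over 14115 genes). The replicate number was a block. Positive log2 fold changes mean higher in daf-2 RNAi. CPM scales counts to the TMM-adjusted library size, and the CPM printed for genes used TMM over all 12 libraries. SE was obtained from each log2 fold change and its F statistic (size over root F), so it restates the test. Over empty vector, values come from the same fit of all 12 libraries. DESeq2 1.42.0 was an alternative.

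Replicate numbers were checked before calls were compared. Deviations from group means correlated at 0.562, 0.466, 0.478 and 0.625 between same-numbered libraries, each above the limit of 0.1. daf-2 RNAi replicate 4 also correlated at 0.495 with pitr-1 RNAi replicate 2. The labels call the libraries biological replicates, and whether numbers mark shared cultures is not stated. The p-values measure the spread left between these libraries once the replicate number is taken out, with 3 residual degrees of freedom per gene. The quasi-likelihood test adds information on spread from the other genes, so p-values and intervals rest on more than these 3.

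Genes were named by this rule: the targeted and mutated genes, the 12 largest changes per direction among called genes of at least 5 CPM with 1 direction in 4 pairs, up to 3 members of each of 35 lists, and 6 genes that stood out against empty vector. The rule, lists and comparison were chosen with earlier results of these data known. Genes chosen after their values were seen were hrg-4, hrg-6, hrg-9, mrp-5, sod-5, alh-2, djr-1.2, lea-1, ftn-1, clec-52, ttr-15, ttr-25, ttr-2 and pgm-1. Also outside the rule were mtl-1, cyp-34A9, spp-2, gfi-1, cpr-8, cpr-3, cpr-5, cpr-6, pept-1, elt-2, ftn-2 and daf-16. These were given as further members of the lists or of the calls. No list was tested as a set. Intervals cover the spread between libraries that is left after the replicate block. PCR reads without molecular identifiers are not independent molecules.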

Additional observations from a re-analysis of the deposited data

Results flagged for a closer look

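In 14 of 90 groups of 4 libraries, 1 library stood apart from the other 3, and 12 of the 14 were a replicate 1 library. The 90 groups are genes measured in the same 8 libraries, some of them named for large changes. They are not independent, so the rate of about 1 in 20 for independent normal samples does not measure chance here. In daf-2 RNAi replicate 1 this held for asp-10 (69.9 CPM against 46.7 to 49.4 in the other 3), fipr-26 (86 against 12.5 to 24.6), F55B12.10 (28.7 against 6.78 to 8.98), hrg-2 (17.4 against 3.23 to 5.58), hrg-1 (314 against 114 to 125) and T28C6.10 (10.6 against 6.35 to 6.75). In pitr-1 RNAi replicate 1 it held for the gene pitr-1 (322 CPM against 168 to 179), F49F1.5 (25.13 against 10.8 to 11.7), hrg-3 (63.9 against 6.86 to 14.1), hrg-1 (540 against 195 to 239), cnc-11 (259 against 34.6 to 72.4) and hrg-9 (12.302 against 7.08 to 7.74). The lectin clec-52 stood at 17.5 CPM in pitr-1 RNAi replicate 4, against 11.9 to 12.56 in the others. djr-1.2 stood at 9.95 CPM in pitr-1 RNAi replicate 3, against 1.04 to 1.83. Without replicate 1, hrg-3, hrg-2, hrg-1, asp-10 and cnc-11 were called and fipr-26 was not (edgeR adjusted p = 0.113). The part of the low depth of pitr-1 RNAi replicate 1 in these values was not tested.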

How the results depend on the processing

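All 60 calls had the same sign in every setting run. Each already had 1 direction in all 4 pairs, so the sign could hardly turn and gives no separate support. Counts of calls, given as higher and lower, were 33 and 27 in the main design. Without the replicate block they were 0 and 0; with all 12 libraries, 12 and 10; with the DESeq2 Wald test, 59 and 64, and without the block, chosen after seeing the data, 9 and 7. With DESeq2 size factors they were 27 and 30, and without ribosomal RNA and mitochondrial genes 33 and 31. Without a filter on low counts they were 118 and 115. Leaving out 1 replicate number gave 6 to 153 higher and 5 to 132 lower; the largest counts came without replicate 1. Replicates 1 and 3 alone gave 45 and 56, and replicates 2 and 4 alone 175 and 162, each from 1 residual degree of freedom. The cause of these shifts was not tested. Without the block, edgeR called none of the genes named as called. Signs that turned were those of genes near 0. hrde-1 gave −0.21 to 0.15 when a replicate was left out (−0.21 without replicate 4) and −0.32 in replicates 1 and 3. pitr-1 gave −0.0101 in replicates 1 and 3. daf-2 gave −0.26 to 0.12 when a replicate was left out (0.12 without replicate 1) and 0.0140 in replicates 2 and 4. Of 272 list medians over settings, 264 moved by less than the spread of the pairs. Each setting reuses these libraries, so small moves give no separate support. Low counts limit hrg-4 and hrg-6, at 9 to 42 counts in each daf-2 RNAi and pitr-1 RNAi library, and F45D11.1 and D1086.9, at 2 and 3 counts in pitr-1 RNAi replicate 1.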

Other observations

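Of 47 tested transthyretin-related (ttr) genes, a large nematode family of secreted proteins, 3 were called higher in daf-2 RNAi progeny and none lower. They were ttr-15, ttr-25 and ttr-2, and over all genes tested 0.234% were called higher. Of the 47, 30 lay above and 17 below 0 (median 0.12). ttr-15 averaged 201 ± 67.4 CPM in daf-2 RNAi progeny, against 118 ± 32.2 CPM in pitr-1 RNAi progeny (SD, n = 4 each), a log2 fold change of 0.76 ± 0.09 (SE, edgeR adjusted p = 0.00519). ttr-25 gave 0.76 ± 0.14 and ttr-2 0.81 ± 0.14. All 3 had overlapping groups, and each was called in 1 of the 4 fits that left out a replicate number. pgm-1 averaged 107 ± 10.9 CPM in daf-2 RNAi progeny, against 62.01 ± 4.74 CPM in pitr-1 RNAi progeny (0.80 ± 0.11, SE, edgeR adjusted p = 0.0118). clec-52 did not pass against pitr-1 RNAi progeny (0.95 ± 0.18, SE, edgeR adjusted p = 0.0554), and over empty vector it gave −0.13 ± 0.18 in daf-2 RNAi progeny, against −1.08 ± 0.19 in pitr-1 RNAi progeny. These genes were chosen after their values were seen.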
